A study of Mus musculus with 36 samples.

Results

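The guidance genes described here are the Eph receptors, their ephrin ligands, the semaphorins and the plexins, taken by gene symbol alone. Of 21442 genes in the count table, 50 had such a symbol. The symbol rule used no measured value, although the families were chosen with earlier results of these data known. They were 8 EphA receptors, 5 EphB receptors, 5 ephrin-A and 3 ephrin-B ligands, 20 semaphorins and 9 plexins. The GENCODE annotation of GRCm38 holds 51 symbols of this form, and the remaining one, Epha6, was not analysed here.

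Eph receptors are tyrosine kinases that bind ephrins anchored in the membrane of a neighbouring cell, and both cells receive a signal, which often ends in repulsion, cell sorting or a tissue boundary. Ephrin-A ligands hang on a lipid anchor, whereas ephrin-B ligands cross the membrane. Semaphorins are secreted or membrane-bound proteins that signal through plexins, and neuropilins serve as co-receptors for most secreted (class 3) semaphorins. The families are best known for steering axons and blood vessels, and they are also expressed in mesenchyme, epithelia and pluripotent cells.

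The 36 RNA-seq libraries, all mouse, fall into 12 groups of 3, formed by 6 stages and by wild-type (WT) against Zfp266 knockout (KO) cells. Zfp266 encodes a KRAB zinc finger protein, and the series asks what its loss does to expression before, during and after reprogramming to induced pluripotent stem cells (iPSCs). All groups go back to the Cas9 TNG MKOS embryonic stem cells (ESCs), which express Cas9, carry a Nanog-GFP reporter and hold a doxycycline-inducible cassette of Myc, Klf4, Oct4 and Sox2 with mOrange in the Sp3 locus. Mouse embryonic fibroblasts (MEFs, strain 129, from chimeric E12.5 embryos that morula aggregation had produced) received a lentivirus with a control or a Zfp266 guide and were harvested after 96 h, so KO MEFs were an edited population and not a clone, and unsorted MEF libraries can hold cells of the host embryos, which came from B6CBAF1 females. Reprogramming cells of the same origin were grown among unlabelled 129 MEFs in ESC medium with 300 ng/ml doxycycline and 10 µg/ml vitamin C, and mOrange+ cells were sorted at days 3, 5 and 7 (D3, D5, D7). The iPS libraries came from clones of Nanog-GFP+ cells sorted at day 15 and grown in puromycin without doxycycline. Of these, 3 came from control and 3 from KO reprogramming. WT ESCs were 3 samples of 1 parental line, Clone J, and KO ESCs were clones derived from it. MEFs and D3 cells thus differ in sorting and medium as well as in the factors, and these cannot be told apart.

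Total counts were between 19224103 and 39610939 per library, and 40 to 49 of the 50 genes had at least 10 reads in a given library. The Zfp266 transcript had 2828 to 3096 normalised counts in WT MEFs and 3072 to 3293 in KO MEFs, but an out-of-frame indel need not lower a transcript, so its level does not check the labels. The summed level of 10 pluripotent markers was 21.2 to 32.2 normalised counts in the 6 MEF libraries and 121000 to 155400 in the 12 iPS and ESC libraries, whereas 5 of 10 fibroblast markers, Col3a1, Postn, Lum, Dcn and Twist2, stayed below 10 in every iPS and ESC library. Fn1, another fibroblast marker, was at 219300 on average in WT MEFs, 5736 at D3 and 29280 in WT iPSCs. Of the 6 epithelial markers, Cdh1 had 4.32 in WT MEFs and 16190 in D7 WT, and Krt18 had 1558 in WT MEFs and 46.7 at D3. KO MEF replicate 3 stood apart from the other MEF libraries. The guidance genes took 0.223% of its counts against 0.314% to 0.323% in the other 5 MEF libraries, its 6 epithelial markers summed to 423 against 1878 to 3043, and it held the lowest of the 6 MEF values for 30 of the 50 genes and the highest for 10. For Sema7a it had 47.7 normalised counts where the other 5 MEF libraries had 2223 to 2674. Each test of the guidance genes below that uses KO MEF libraries is therefore also given without it. These are bulk libraries, in which fewer cells of a type and less RNA per cell cannot be told apart.

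The guidance genes were most abundant in MEFs, and each family left that level in its own way. Levels of different genes are compared as normalised counts per kilobase of exon (per kb), where a normalised count is the read count divided by the size factor of its library. Summed over all 50 genes, WT MEFs held 15720 ± 74.0 per kb (mean ± SD, n = 3), WT D3 cells 7637 ± 524, WT D7 cells 7061 ± 250.7, WT iPSCs 4565 ± 254 and WT ESCs 4225 ± 335. Eph receptors fell to 1200 ± 83.5 at D3 from 2811 ± 68.4 in WT MEFs and stood at 1819 ± 96.4 at D7 and 1903 ± 167 in ESCs. Ephrins went from 3938 ± 53.9 in MEFs to 932 ± 115 at D3 and 480 ± 27.4 in ESCs, and plexins from 4964 ± 57.4 to 3883 ± 293 and 864 ± 98.0. Eph receptors thus made up 17.9% of the summed level in WT MEFs and 45.0% in WT ESCs, and plexins 31.6% and 20.4%. Within the Eph receptors the balance turned from EphB, 1826 ± 49.6 per kb against 985 ± 23.8 of EphA in MEFs, to EphA, 1423 ± 128 against 481 ± 38.4 of EphB in ESCs. These sums are descriptions and were not tested.

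**Figure D1:**
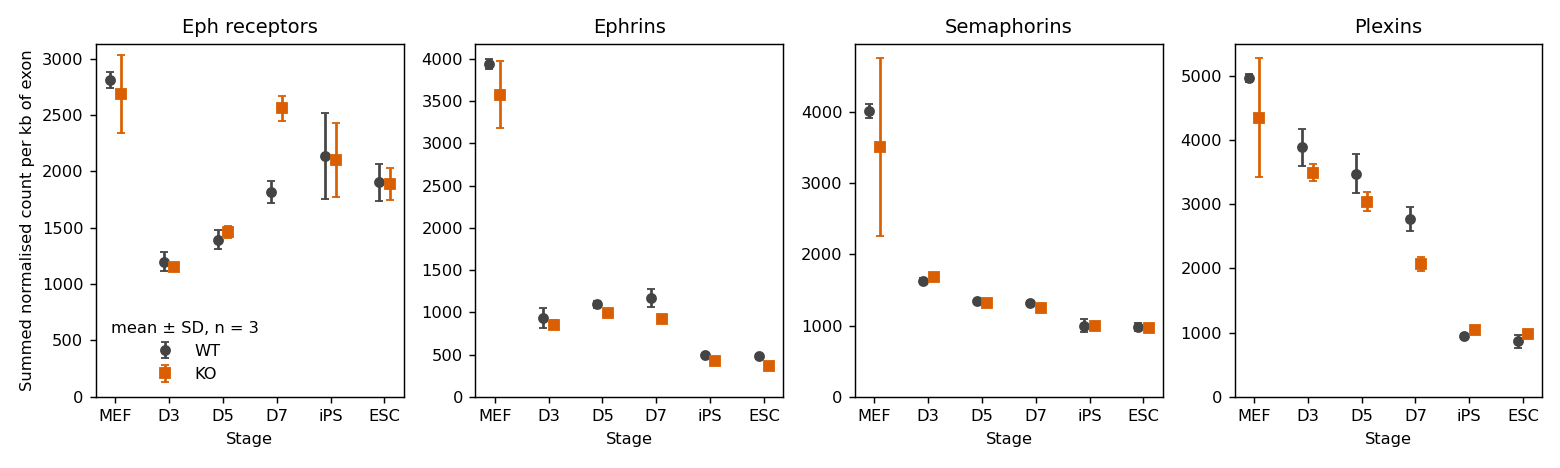
Summed level of each family by stage (horizontal axis) in normalised counts per kb of exon (vertical axis from 0), as mean ± SD of 3 libraries, WT as grey circles and KO as orange squares. Ephrins and semaphorins drop between MEF and D3, plexins fall at each stage, and the Eph receptors return from 1200 per kb at D3 to 1819 per kb at D7 in WT and 2561 per kb in KO.

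A few members carried most of each sum. Plxnb2, a plexin that binds class 4 semaphorins, was the most abundant in every WT group from MEFs to D7, at 2692 ± 24.7 per kb in WT MEFs (17.1% of the sum) and 1636 ± 102 at D7. Epha2, a receptor with broad epithelial expression, ranked first in WT iPSCs at 1246 ± 376 and in WT ESCs at 1065 ± 94.1 per kb, where Plxnb2 was down to 276 ± 28.6 and 273 ± 26.8. In the D7 KO libraries Epha2 already ranked above Plxnb2, at 1515 ± 89.8 against 1338 ± 47.0 per kb, whereas in D7 WT it was 997 ± 91.6 against 1636 ± 102. The next genes in WT MEFs were Plxna1, Efnb1, Ephb4, Efnb2 and Efna5, and those in WT ESCs were Sema4b, Plxna1, Epha4, Plxnb2 and Ephb4. Neighbours in that order did not overlap in WT MEFs down to Efna5, which overlapped with Sema3c, and in WT ESCs Epha4 overlapped with Plxnb2 and Plxnb2 with Ephb4. Within classes, the highest member per kb in WT MEFs was Sema3c for class 3, Sema7a being the lone class 7 gene, and Sema4b, the most abundant semaphorin of pluripotent cells, held 601 ± 34.6 per kb in WT ESCs.

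**Figure D2:**
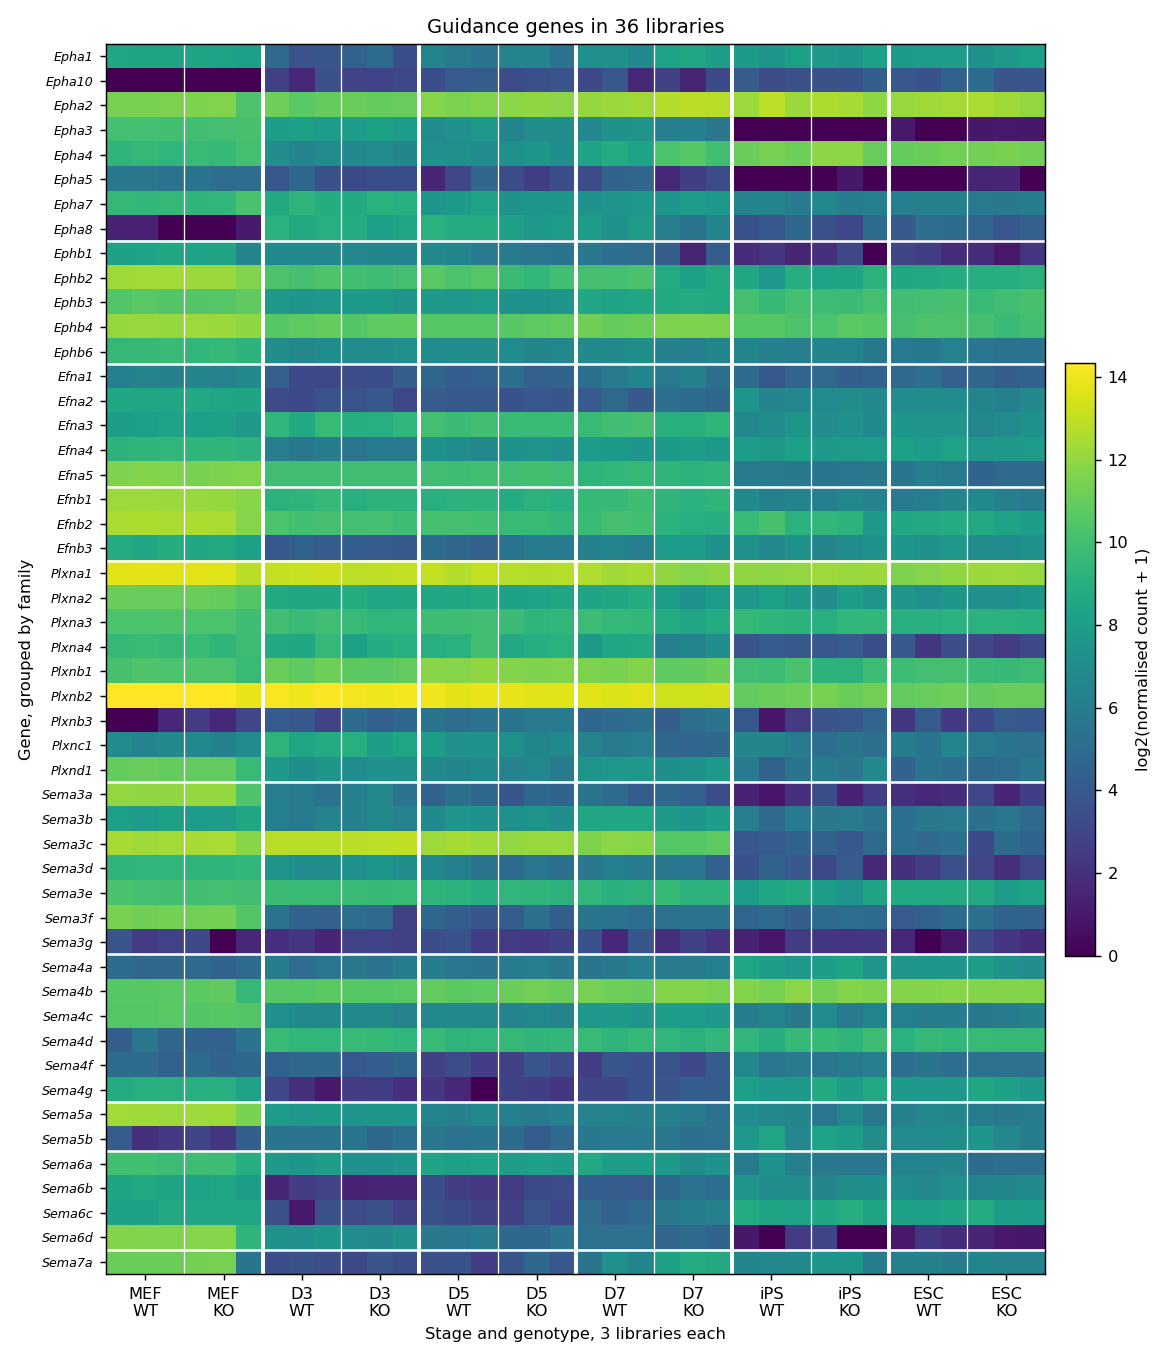
Levels of all 50 genes (rows, grouped by family) in 36 libraries (columns, 3 per stage and genotype) as log2(normalised count + 1), from dark purple (0) to yellow (about 14). KO MEF replicate 3, the last MEF column, is darker than its neighbours for Sema7a and Sema6d, and Epha8 is dark in all 6 MEF libraries and green at D3 and D5.

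Between WT MEFs and WT D3, most guidance genes fell. Of 50, 37 passed FDR < 0.05 with a log2 fold change (log2FC) beyond 1, which is the rule for a differentially expressed gene (DEG) here, 30 lower and 7 higher at D3. Among all 21436 genes tested 44.9% passed in either direction, 25.4% lower and 19.5% higher. The median log2FC was −1.97 over the guidance genes and −0.01 over all genes tested. By family: 5 of 5 EphB receptors, 4 of 5 ephrin-A and 3 of 3 ephrin-B genes, 4 of 4 class 6 semaphorins and 4 of 7 class 3 semaphorins were DEGs with lower levels. EphA receptors had 4 lower and 2 higher of 8, plexins 2 lower and 2 higher of 9, and class 4 semaphorins 2 lower and 1 higher of 6. Of the DEGs with a mean of at least 50 normalised counts in either group, the 8 largest by log2FC were Epha8, which rose, and Sema7a, Sema4g, Sema3f, Sema6b, Sema3a, Sema6c and Efna2, which fell.

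Sema7a, a lipid-anchored semaphorin that also binds integrins, had 2280, 2239 and 2223 normalised counts in the WT MEFs and 10.1, 11 and 9.69 at D3. That is a log2FC of −7.77 ± 0.71 (SE, FDR = 3.1e-27). Sema3f, a secreted repellent for cells with neuropilin-2, went from 2710, 2396 and 2576 to 44.9, 22.0 and 20.4. Its log2FC was −6.45 ± 0.34 (FDR = 1.09e-80). Sema3a, the secreted ligand of neuropilin-1 and plexin-A, fell from 4171, 4046 and 4070 to 70.6, 59.0 and 40.7 (log2FC −6.17 ± 0.39, FDR = 3.11e-54). The other class 3 gene at high level, Sema3c, did not follow them, with 5033 to 5776 in MEFs and 7104 to 7254 at D3, a log2FC inside 1. Sema4g (−7.03 ± 0.47, FDR = 7.25e-49), Sema6b (−6.31 ± 0.43, FDR = 6.18e-48), Sema6c (−5.44 ± 0.38, FDR = 5.65e-46) and Efna2 (−5.27 ± 0.33, FDR = 2.46e-55) fell to between 0.969 and 11.6 normalised counts at D3 from 292 to 533 in MEFs, a level of a few reads that leaves the folds imprecise.

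The 7 DEGs that rose at D3 came from several families: Epha8, Epha10, Efna3, Plxnb3, Plxnc1, Sema4d and Sema5b. Epha8, a receptor for ephrin-A ligands expressed in the developing brain, had 1.74, 1.51 and 0 normalised counts in WT MEFs, at or below the level that 3 reads make there, and 574, 427 and 532 at D3 (FDR = 3.83e-17). No fold is given against a level that low. Sema4d, a ligand of Plxnb1, rose from 19.1, 51.5 and 25.5 to 817, 726 and 698 (log2FC 4.55 ± 0.24, FDR = 9.18e-80), so the groups were far apart. Efna3 rose by 1.20 on the log2 scale (FDR = 2.07e-08) from 263 to 320 normalised counts up to 438 to 832, and Plxnc1, the receptor of Sema7a, by 2.15 (FDR = 3.85e-14). Plxnc1 and its ligand thus moved in opposite directions between these stages.

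Fewer genes changed during the week of reprogramming. From WT D3 to WT D5, 9 guidance genes were DEGs, 4 higher and 5 lower, against 6.77% of all genes tested (4.94% higher and 1.84% lower). Epha1 rose from 18.6 ± 10.1 normalised counts at D3 to 63.0 ± 21.6 at D5 (log2FC 1.75 ± 0.33, FDR = 2.94e-06), Sema3b rose by 1.07 (FDR = 1.06e-04) and Efna4 by 1.04 (FDR = 8.8e-09). Sema6d (−1.68, FDR = 0.00133), Plxnc1 (−1.34, FDR = 9.65e-06), Sema5a (−1.31, FDR = 3.18e-07) and Epha7 (−1.11, FDR = 1.74e-06) fell. Plxnb3 and Sema4f, both under 50 normalised counts on average, were the remaining calls.

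From WT D5 to WT D7, 14 of the 49 guidance genes tested were DEGs, 10 higher and 4 lower, against 5.81% of all genes tested (4.74% higher and 1.07% lower). Sema7a returned from 10.7, 11.4 and 5.21 to 45.6, 147 and 93.6 (log2FC 3.39 ± 0.72, FDR = 4.8e-05). Efnb3 rose from 32.0, 25.8 and 19.8 to 77.1, 89.6 and 73.1 (1.62 ± 0.26, FDR = 2.11e-08), and Epha4 from 148, 145 and 124 to 337, 473 and 314 (1.43 ± 0.20, FDR = 1.32e-10). For all 3 genes the D7 libraries lay above the D5 libraries. Efna1 (1.54, FDR = 5.73e-04), Sema3b (1.23, FDR = 1.05e-06) and Epha1 (1.11, FDR = 9.07e-04) also rose, whereas Plxnc1 (−1.46, FDR = 7.24e-06) and Epha8 (−1.17, FDR = 0.00172) fell.

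Between WT D7 and WT iPSCs 32 guidance genes were DEGs, 23 lower and 9 higher, against 45% of all genes tested (25% lower and 20% higher). Plexins fell in 5 of 9 cases and rose in none, class 3 semaphorins fell in 5 of 7 and rose in none, and class 4 semaphorins rose in 3 of 6 and fell in 1. Sema3c went from 3004, 3768 and 3616 normalised counts at D7 to 13.8, 17.2 and 24.1 in iPSCs (log2FC −7.57 ± 0.24, FDR = 1.73e-223). Epha3 had 105 to 169 at D7 and no read in any of the 3 iPS libraries (FDR = 8.22e-16), so its fold is not given. Plxna4 (−4.46 ± 0.36, FDR = 3.82e-35), Efna5 (−3.65 ± 0.12, FDR = 1.78e-201), Epha8 (−3.63 ± 0.36, FDR = 4.53e-23) and Efnb1 (−3.17 ± 0.17, FDR = 1.62e-79) fell as well. Sema4g rose from 7.10, 7.05 and 11.3 to 270.3, 204 and 212 (4.75 ± 0.37, FDR = 1.82e-37) and Sema6c from 34.5, 22.2 and 28.8 to 449, 331 and 306 (3.67 ± 0.28, FDR = 9.31e-38).

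Over the whole course, 6 genes fell between MEF and D3 and rose between D7 and iPS, namely Epha4, Ephb3, Efna2, Sema4g, Sema6b and Sema6c. Another 14 fell at both steps, among them Ephb1, Ephb2, Efna5, Efnb1, Sema3a and Sema6a, and 3 rose and then fell, which were Epha8, Efna3 and Plxnb3. Sema5b alone rose at both. The share of all genes with each of these patterns is not given here, so the counts are not read as a trait of the families. Set directly against WT MEFs, WT ESCs had 42 DEGs among the 50 genes, 34 lower and 8 higher, against 55.4% of all genes tested (29.4% lower and 26.0% higher). All 7 class 3 semaphorins were lower in ESCs, with a median log2FC of −6.76, and so were 3 of 3 ephrin-B genes, with a median of −3.85. With TMM size factors the median log2FC of all genes tested in this comparison moved from 0.05 to 0.16 and that of the guidance genes from −1.88 to −1.77. The largest differences were those of Epha3 and Sema3a, with 1042 to 1089 and 4046 to 4171 normalised counts in MEFs and at most 1.00 and 3.01 in ESCs, followed by Sema6d (3158 to 3367 against at most 4.05). Sema3c (−7.28 ± 0.20, FDR = 2.87e-279), Sema3f (−6.76 ± 0.34, FDR = 1.14e-84), Sema3d (−6.76 ± 0.43, FDR = 6.34e-56), Plxna4 (−6.38 ± 0.39, FDR = 1.36e-58) and Ephb1 (−6.11 ± 0.54, FDR = 1.46e-28) came next.

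WT iPSCs and WT ESCs differed in 1 of the 39 guidance genes tested, against 0.275% of all genes tested. Efnb2, a ligand of EphB receptors and Epha4, had 811, 1136 and 600.3 normalised counts in the iPS clones and 380, 405 and 473 in ESCs (log2FC −1.02 ± 0.26, FDR = 0.00823). The groups did not overlap, but the call was lost in 4 of 6 fits that left out 1 library, with edgeR and with the replicate block. With edgeR no guidance gene was called.

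No guidance gene was called between KO and WT in MEFs or at D3. In MEFs 0 of 50 were DEGs, against 0.019% of all genes tested, and in DESeq2 2 had an unadjusted p below 0.05. EdgeR also called 0, and leaving out KO MEF replicate 3 gave 0 as well. Sema7a in MEFs, with 2637, 2674 and 47.7 in KO against 2223 to 2280 in WT, had an FDR of 0.954 in DESeq2 and was not called without that library either. At D3 0 of 46 genes tested were DEGs in DESeq2, against 0.162% of all genes tested, with 2 at an unadjusted p below 0.05, and edgeR called 0. The difference between the KO effects at D3 and in MEFs was called for 0 of 50 genes, against 0.042% of all genes tested, with 1 at an unadjusted p below 0.05 in DESeq2, 0 calls with edgeR and 0 without KO MEF replicate 3.

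At D5 the first guidance genes passed the FDR between KO and WT. Efnb3, an ephrin-B ligand known from the midline of the nervous system, was the 1 DEG among 48 genes tested, against 1.19% of all genes tested (0.808% higher). It had 45.8, 65.1 and 57.8 normalised counts in KO and 32.0, 25.8 and 19.8 in WT. The lowest KO library lay above the highest WT library, and the log2FC was 1.11 ± 0.27 (FDR = 0.00121). Without WT replicate 3 the log2FC no longer passed 1, while the FDR stayed below 0.05 in all 6 fits without a library. By FDR alone, Ephb2, Epha8 and Ephb3 were lower in KO, where 7.15% of all genes tested passed FDR alone and 2.43% were lower. Ephb2 had 872, 712 and 1023 in KO and 1615, 1260 and 1511 in WT (−0.75 ± 0.22, FDR = 0.0171), and Epha8 had 301, 218 and 242 against 571, 446 and 475 (−0.97 ± 0.31, FDR = 0.0309). Ephb3 was at 158 to 178 against 217 to 242 (−0.45 ± 0.15, FDR = 0.0396). These 3 calls were lost in 4 to 6 of the 6 fits without a library.

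At D7 the KO changed guidance genes of all 4 families, in both directions. Of 50, 14 were DEGs, 6 higher and 8 lower in KO, against 8.37% of all 21020 genes tested (3.95% higher and 4.42% lower). By FDR alone 27 passed, 8 higher and 19 lower, against 29.4% of all genes (13.3% higher and 16.1% lower). EdgeR, TMM size factors, a filter on low counts, a fit of the 6 D7 libraries and the replicate block each gave 14 again, 6 higher and 8 lower. The counts without 1 library ran from 11 to 16. The median log2FC was −0.34 over the guidance genes and −0.05 over all genes tested. KO and WT libraries did not overlap for 31 of the 50 guidance genes, against 9954 of all 21020 genes tested.

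**Figure D3:**
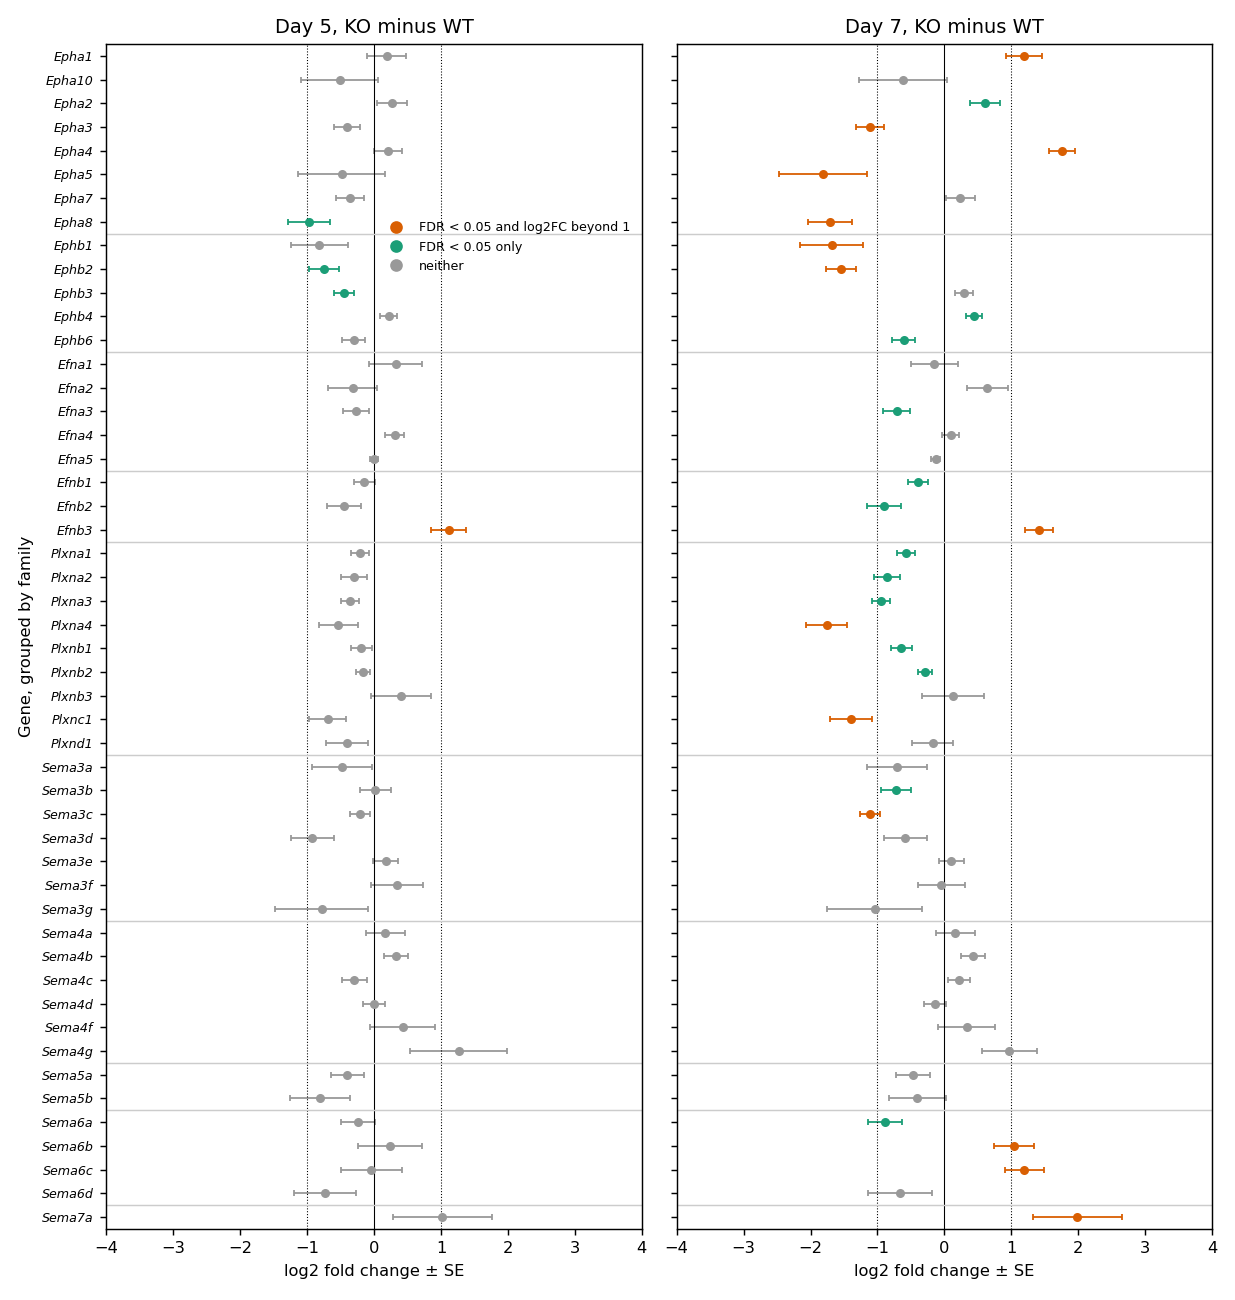
Log2FC of KO minus WT (horizontal axis, ± SE) for the 50 guidance genes (vertical axis) at D5 on the left and D7 on the right, with dotted lines at −1 and 1. Orange points pass FDR < 0.05 and a log2FC beyond 1, green points pass FDR alone, and grey points pass neither. At D7 no plexin lies among the coloured points to the right of 0, and Epha4, Efnb3 and Sema7a are the orange points furthest right.

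In GRCm38, Epha4 lies at chr1:77367185-77515088, Sema3c at chr5:17574281-17730268, Ephb2 at chr4:136647539-136835988, Epha8 at chr4:136929419-136956816, Efnb3 at chr11:69554092-69560205 and Plxna4 at chr6:32144268-32588192, all on the minus strand but Sema3c. Several of the genes that the D7 result turns on are shown with the 250 bases upstream of their RefSeq start in GRCm38.p6, written 5′ to 3′ on the strand of the gene. Ephb2 and Epha8 are printed because they lie 93.4 kb apart on chromosome 4, both on the minus strand with C1qa, C1qb and C1qc between them, and were both lower in KO.
Ephb2, chr4:136836013-136836262, minus strand: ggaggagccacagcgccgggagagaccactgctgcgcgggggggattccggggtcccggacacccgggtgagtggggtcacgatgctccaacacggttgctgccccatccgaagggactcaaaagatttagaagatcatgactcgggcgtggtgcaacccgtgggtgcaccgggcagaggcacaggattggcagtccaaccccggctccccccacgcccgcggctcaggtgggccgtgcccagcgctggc
Epha8, chr4:136956817-136957066, minus strand: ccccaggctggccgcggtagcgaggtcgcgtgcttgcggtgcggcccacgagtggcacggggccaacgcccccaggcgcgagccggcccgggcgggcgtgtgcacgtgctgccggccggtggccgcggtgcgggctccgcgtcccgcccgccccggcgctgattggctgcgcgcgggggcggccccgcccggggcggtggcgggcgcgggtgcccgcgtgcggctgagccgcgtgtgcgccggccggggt
Epha4 is printed as the guidance gene with the lowest FDR at D7.
Epha4, chr1:77515089-77515338, minus strand: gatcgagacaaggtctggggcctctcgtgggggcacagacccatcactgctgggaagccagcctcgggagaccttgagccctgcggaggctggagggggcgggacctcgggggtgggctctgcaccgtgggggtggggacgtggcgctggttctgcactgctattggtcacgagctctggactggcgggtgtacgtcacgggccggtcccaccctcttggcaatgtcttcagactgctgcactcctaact
The next sequences hold a match, in capitals, to a short motif that was searched on both strands in windows of 250 bases before to 50 after the start. Ephb1, lower in KO, holds a SOX-type match (CATTGTT, here on the other strand as AACAATG).
Ephb1, chr9:102354694-102354943, minus strand: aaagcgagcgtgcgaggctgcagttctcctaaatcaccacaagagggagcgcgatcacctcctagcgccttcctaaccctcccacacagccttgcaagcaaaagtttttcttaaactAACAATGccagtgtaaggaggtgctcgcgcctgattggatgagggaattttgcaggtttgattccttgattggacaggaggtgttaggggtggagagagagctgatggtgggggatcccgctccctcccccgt
Plxna3, lower in KO by FDR, holds a KLF-type match (CCACACCC, here as GGGTGTGG).
Plxna3, chrX:74328816-74329065, plus strand: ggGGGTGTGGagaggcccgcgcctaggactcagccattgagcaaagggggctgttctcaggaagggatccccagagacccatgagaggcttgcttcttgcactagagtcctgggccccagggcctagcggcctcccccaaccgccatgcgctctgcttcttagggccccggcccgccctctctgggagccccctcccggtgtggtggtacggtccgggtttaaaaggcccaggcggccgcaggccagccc
Sema6b, higher in KO, holds an AP-1-type match (TGANTCA) before the inner of its 2 listed starts.
Sema6b, chr17:56133853-56134102, minus strand: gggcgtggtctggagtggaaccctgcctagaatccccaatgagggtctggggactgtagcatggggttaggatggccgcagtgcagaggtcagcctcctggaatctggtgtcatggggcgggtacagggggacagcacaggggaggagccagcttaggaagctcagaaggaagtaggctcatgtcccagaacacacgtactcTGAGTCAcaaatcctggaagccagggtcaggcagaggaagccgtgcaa

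In all, 44 of the 50 genes had a window in the RefSeq table, 58 windows together. The SOX-type heptamer was in windows of 2 guidance genes (Ephb1 and Plxnb3) and in 3.78% of all 32851 windows of the table, the KLF-type octamer in those of 3 (Efna1, Efna4 and Plxna3) and in 3.56%, and the AP-1-type heptamer in those of 3 (Sema4c, Sema4d and Sema6b) and in 7.81%. The Oct4-type octamer ATGCAAAT was in none of the 58 windows and in 1.74% of all windows. No motif is contained in another. Of the 14 genes called at D7, Efnb3 and Plxna4 had no window and were not searched, and among the others Ephb1 and Sema6b held a match. The share of all genes with any match is not given here, so this is not read as a trait of the called genes. The matches describe sequence, not binding.

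Eph receptors moved both ways at D7. Epha4, which binds both ephrin classes and is well known as a repellent receptor of axons, had 337, 473 and 314 normalised counts in WT and 1272, 1498 and 1019 in KO. All KO libraries lay above all WT libraries (log2FC 1.75 ± 0.19, FDR = 1.04e-17). Epha1, an ephrin-A receptor of epithelia, had 149, 151 and 110.1 in WT and 315, 355 and 264 in KO (1.19 ± 0.27, FDR = 9.08e-05). Its exons overlap those of Zyx on the opposite strand over 6.0% of their length, and reads of the overlap cannot be assigned if counting ignored strand. In the other direction, Ephb2, a receptor of ephrin-B ligands, had 1118, 1059 and 1217 in WT and 448, 300.2 and 415 in KO (−1.55 ± 0.23, FDR = 3.3e-10). Epha8, on the same stretch of chromosome 4, had 263, 166 and 235 in WT and 69.3, 45.5 and 88.1 in KO (−1.71 ± 0.33, FDR = 2.37e-06). For both genes the KO libraries lay below every WT library.

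The remaining receptors called at D7 were at lower levels. Epha3 had 105, 162 and 169 in WT and 73.3, 77.9 and 49.9 in KO (−1.11 ± 0.21, FDR = 2.28e-06), and it was no longer beyond 1 without WT or KO replicate 3. Ephb1 had 52.7, 37.3 and 34.0 in WT and 19.1, 1.75 and 18.2 in KO (−1.68 ± 0.47, FDR = 0.00228). Epha5 had 9.13, 23.2 and 25.7 in WT and 2.01, 5.25 and 9.08 in KO (−1.81 ± 0.66, FDR = 0.0249), and that call was lost in 4 of 6 fits without a library. By FDR alone Epha2 (0.60 ± 0.22, FDR = 0.0247) and Ephb4, an ephrin-B2 receptor of veins (0.45 ± 0.12, FDR = 0.00157), were higher and Ephb6, which lacks kinase activity, was lower (−0.61 ± 0.17, FDR = 0.003). Epha2 had 4260, 4613 and 5112 in WT and 6597, 7337 and 7309 in KO, with no overlap between the groups.

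Of the 8 ephrins, 1 was a DEG at D7, against 8.37% of all genes tested (3.95% higher). Efnb3 had 77.1, 89.6 and 73.1 in WT and 244, 234 and 163 in KO, with no overlap (1.42 ± 0.21, FDR = 4.68e-10). The other ephrin-B ligands went the other way by FDR alone. Efnb2 had 888, 1110 and 1046 in WT and 601, 536 and 493 in KO (−0.90 ± 0.26, FDR = 0.00268), and Efnb1 had 769, 790 and 939 in WT and 651, 580 and 665 in KO (−0.40 ± 0.15, FDR = 0.0283). Of the ephrin-A ligands, which bind mainly EphA receptors, Efna3 passed FDR alone, at 811 to 1103 in WT and 535 to 679 in KO (−0.71 ± 0.20, FDR = 0.00266), and the other 4 did not pass. Efna3 shares 14.1% of its exon length with Gm15998 on the opposite strand.

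All plexins that passed the FDR at D7 were lower in KO, 7 of 9 against 16.1% of all genes tested, and 2 of these were DEGs against 4.42%, with a median log2FC of −0.64 over the plexins. Plxna4, a signalling receptor for class 3 and class 6 semaphorins, had 225, 341 and 407 in WT and 72.3, 87.5 and 128 in KO (−1.76 ± 0.30, FDR = 1.48e-07). Plxnc1 had 84.2, 56.4 and 68.9 in WT and 28.1, 24.5 and 27.2 in KO (−1.39 ± 0.32, FDR = 1.2e-04). Both stayed called without any 1 library. Plxna3 had 912, 754 and 738 in WT and 453, 348 and 446 in KO and came close to the fold threshold (−0.95 ± 0.14, FDR = 2.03e-10). Plxna2 (−0.85 ± 0.20, FDR = 1.44e-04), Plxnb1 (−0.64 ± 0.16, FDR = 4.08e-04), Plxna1 (−0.57 ± 0.14, FDR = 3.05e-04) and Plxnb2 (−0.29 ± 0.11, FDR = 0.0242) were lower too. Plxnb3 and Plxnd1 had a log2FC of 0.12 (FDR = 0.889) and −0.17 (FDR = 0.729) and did not pass. Summed per kb, plexins were at 2765 ± 186 in D7 WT and 2065 ± 110 in D7 KO, and at 864 to 1034 on average in the 4 iPS and ESC groups.

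Of the 20 semaphorins, 3 were DEGs higher and 1 lower in KO at D7, against 3.95% higher and 4.42% lower of all genes tested. Sema3c, a secreted ligand known from the cardiac outflow tract, had 3004, 3768 and 3616 in WT and 1511, 1492 and 1808 in KO (−1.11 ± 0.15, FDR = 7.57e-12), and every KO library was far below the WT libraries. Sema7a had 45.6, 147 and 93.6 in WT and 282, 448 and 404 in KO (1.99 ± 0.67, FDR = 0.0135), and the call was lost without KO replicate 2 or WT replicate 1. Its receptor gene Plxnc1 was lower in the same libraries, as given above. Sema6c had 34.5, 22.2 and 28.8 in WT and 53.2, 65.7 and 76.3 in KO (1.19 ± 0.30, FDR = 4.53e-04). Sema6b, like Sema6c a membrane-spanning ligand of A-type plexins, had 18.3, 18.1 and 16.5 in WT and 28.1, 43.8 and 36.3 in KO (1.04 ± 0.30, FDR = 0.00329), and it was not beyond 1 without KO replicate 2 or WT replicate 3. By FDR alone Sema3b (−0.72 ± 0.22, FDR = 0.00553) and Sema6a (−0.89 ± 0.25, FDR = 0.00257) were lower, so class 6 held members on both sides.

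**Figure D4:**
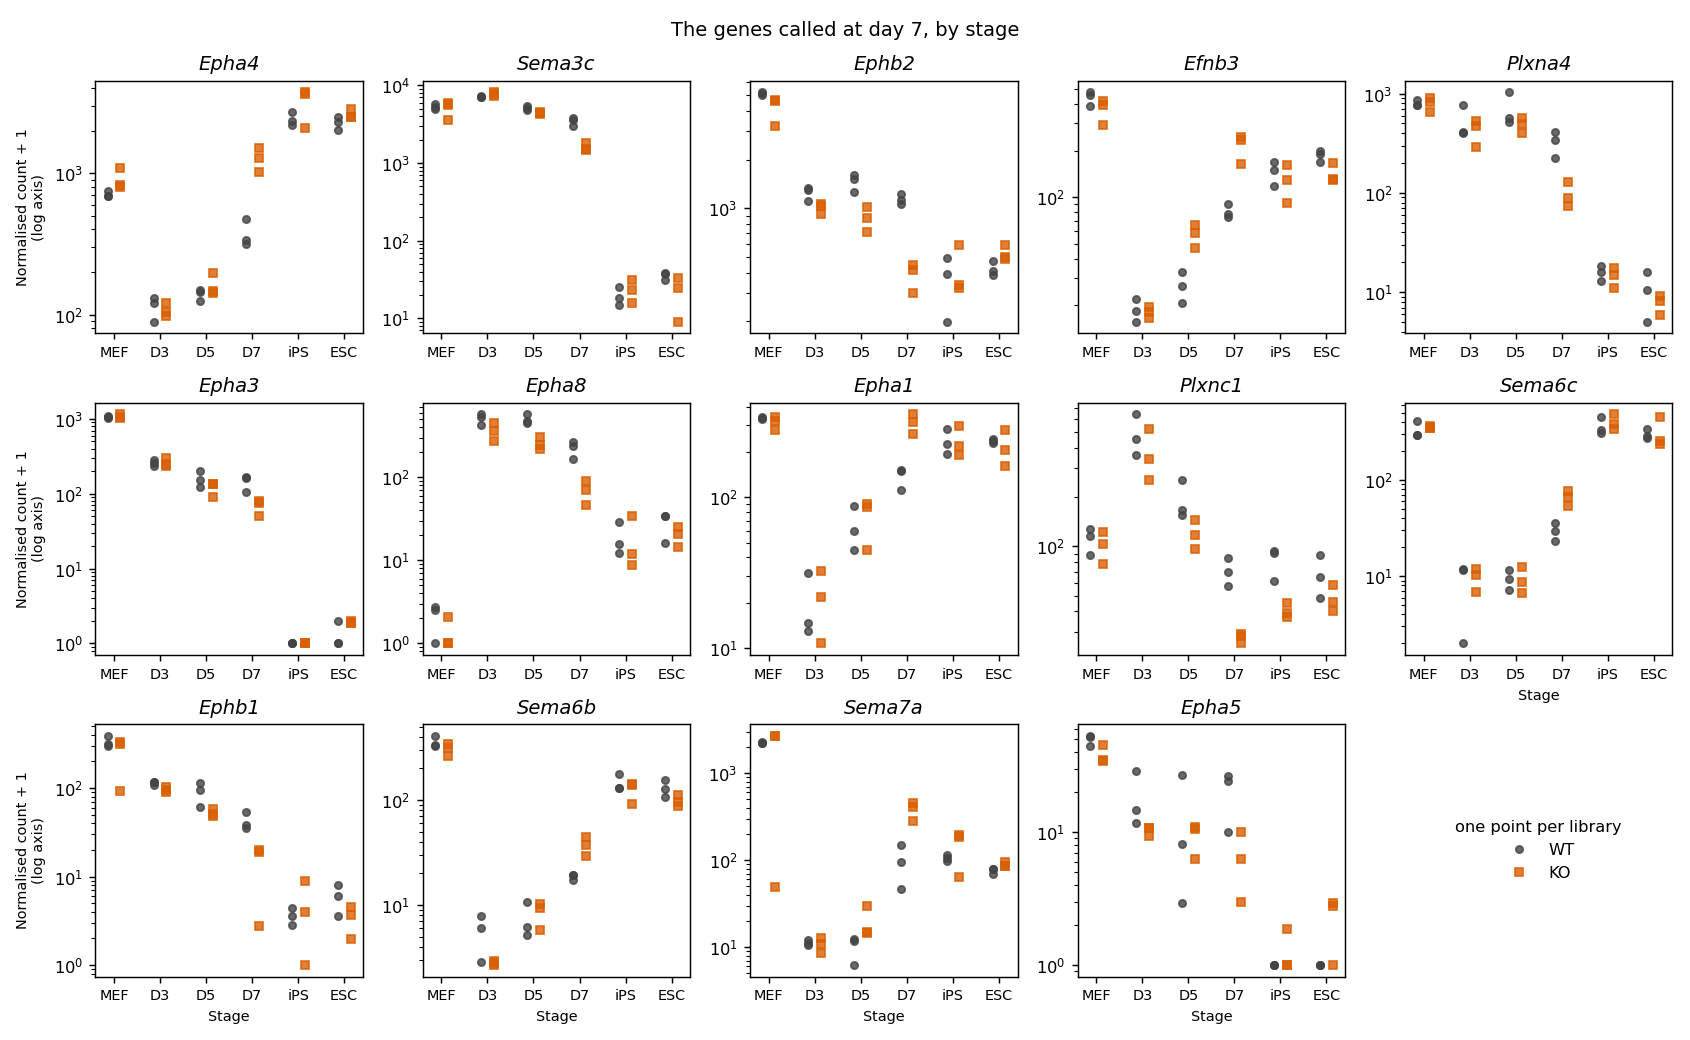
Normalised count + 1 on a log axis for the 14 genes called at D7, by stage, with 1 point per library, WT as grey circles and KO as orange squares. KO and WT points do not overlap at D7 for any of the 14 genes, which were called from these same libraries. Of all 21020 genes tested, 9954 did not overlap at D7. Efnb3, Ephb2 and Epha8 are among those already apart at D5, and Plxnc1 is the gene called in iPSCs.

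Markers of other cell types moved with genotype at D7, and their part in the result was not tested. The 5 neural markers found in the table summed to 8230 to 9595 normalised counts in D7 WT and 2872 to 3912 in D7 KO, none of them below 10 in all libraries of a group, and Tubb3 made up most of that sum, at 8662 and 3294 on average. The 10 pluripotent markers summed to 12220 to 16010 in WT and 32940 to 42590 in KO. The 10 fibroblast markers summed to 35270 to 49080 and 22920 to 41930, with Col1a1 at 12310 and 5173 on average, Col1a2 at 8606 and 3958, Col3a1 at 6625 and 3269 and Dcn at 3291 and 1491, but Fn1 at 11590 and 17010. The 7 endothelial markers summed to 1538 to 1942 and 3760 to 3782, but Emcn and Cldn5 were below 10 in every D7 library and Tie1, at 922 and 2691 on average, supplied most of the sum, with Tek at 634 and 424 and Pecam1 at 177 and 602.5. The 6 epithelial markers summed to 55030 to 59960 and 55230 to 57400, and Krt8, at 38010 and 31600 on average, made up most of the sum. Krt18 was at 541 and 2044, Epcam at 2592 and 3862 and Cldn6 at 416 and 750.1. Of 4 neural crest markers, summing to 189 to 214 and 225 to 301, and of 5 blood markers, summing to 301 to 389 and 480 to 512, S100b and, in KO, Adgre1 and Spi1 were below 10. The 2 muscle markers found summed to 40.6 to 197.5 and 40.9 to 49.2, with Actc1 below 10.

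The D7 changes were set beside the WT difference between MEFs and ESCs, a comparison that shares no library with them. Of the 14 DEGs, 11 were also DEGs between WT ESCs and WT MEFs. For 7 of these (63.6%) the KO change had the sign of the ESC minus MEF difference, against 82.6% of all genes that were DEGs in both. This sign does not tell whether the KO level came closer to the ESC level. By FDR alone it was 16 of 21 (76.2%) against 80.2%. Epha4 was higher in ESCs and higher in KO, and Ephb1, Ephb2, Epha3, Epha5, Plxna4 and Sema3c were lower in both. Efnb3, Sema6b and Sema7a were lower in ESCs than in MEFs but higher in D7 KO than in D7 WT, and Epha8 was higher in ESCs but lower in KO. At D3 these 4 genes stood on the other side of the ESC level from MEFs. D3 WT libraries had 14.7 to 21.0 of Efnb3, 1.83 to 6.78 of Sema6b and 9.69 to 11 of Sema7a, below ESCs in every library, and 427 to 574 of Epha8, above ESCs in every library. WT ESCs had 168 to 197 of Efnb3, 106 to 154 of Sema6b and 15.1 to 33.4 of Epha8. For these genes the mean of D7 KO lay closer to WT ESCs than that of D7 WT. Sema7a, at 67.8 to 77.9 in WT ESCs, lay further away in D7 KO.

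**Figure D5:**
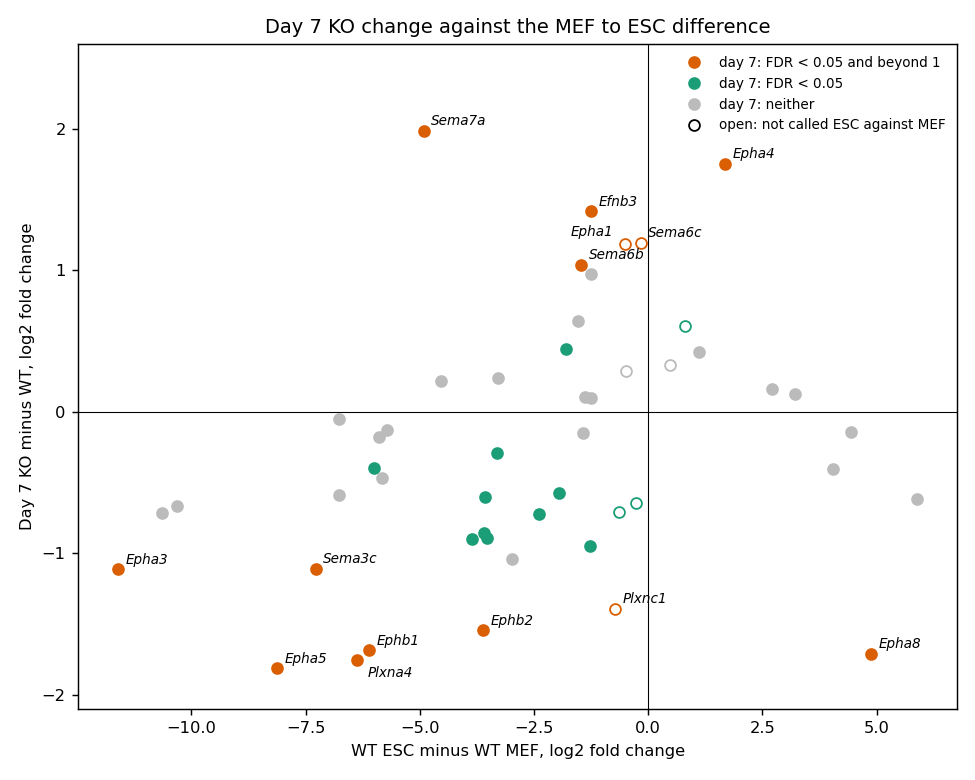
Log2FC of D7 KO minus D7 WT (vertical axis) against log2FC of WT ESC minus WT MEF (horizontal axis) for the 50 genes. Orange points are DEGs at D7, green points pass FDR alone, grey points pass neither, and open points are not DEGs between ESC and MEF. Of the 11 filled orange points 7 lie in the lower left or upper right quadrant, and Sema7a, Efnb3, Sema6b and Epha8 lie in the others.

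The earlier days were compared with D7 in separate libraries. Of the 14 genes called at D7, 13 had a log2FC of the same sign at D5 (92.9%), against 81.4% of all genes called at D7, and 8 had the same sign at D3 (57.1%), against 66.4%. The difference between the KO effects at D7 and D3 was tested as an interaction, and 8 of 48 genes were called, 3 higher and 5 lower, against 4.12% of all genes tested (1.93% higher and 2.19% lower). Epha4 had the largest evidence, with a log2FC that was larger by 1.84 ± 0.29 at D7 than at D3 (FDR = 4.8e-08), and its D3 libraries were at 88.0 to 129 in WT and 96.3 to 119 in KO. Sema3c followed with −1.22 ± 0.21 (FDR = 1.15e-06), at 7104 to 7254 in WT and 7398 to 8114 in KO at D3. Efnb3 and Sema6b were called higher, and Epha3, Ephb2, Plxna4 and Sema3b lower.

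In iPSCs Plxnc1 was the 1 DEG among 50 genes, against 4.51% of all genes tested (0.557% lower). It had 92.4, 90.4 and 60.3 normalised counts in the WT clones and 35.9, 44.3 and 38.4 in the KO clones, with no overlap (log2FC −1.04 ± 0.30, FDR = 0.00719), and the log2FC fell inside 1 without KO clone 1, WT clone 1 or WT clone 2. By FDR alone Plxnb1 (−0.52, FDR = 0.0118), Sema6a (−0.86, FDR = 0.0166), Sema5a (−0.67, FDR = 0.037) and Efnb2 (−0.71, FDR = 0.0389) were lower and Sema4g (0.67, FDR = 0.0264) was higher, against 16.3% of all genes (6.63% lower and 9.72% higher). Clones differed widely within a group: Efnb2 had 715, 625 and 220.2 in the KO clones and 811, 1136 and 600.3 in the WT clones, which overlap.

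In ESCs 2 of 47 genes were DEGs, both lower in KO, against 1.21% of all genes tested (0.468% lower). Sema6a, a membrane-spanning ligand of plexin-A2 and plexin-A4, had 84.4, 82.0 and 92.1 in the WT samples and 32.3, 38.0 and 35.0 in the KO clones (log2FC −1.30 ± 0.29, FDR = 4.0e-04). That call held without any 1 library. Efna5 had 47.2, 70.9 and 60.8 in WT and 23.3, 30.2 and 29.6 in KO (−1.11 ± 0.19, FDR = 1.46e-06), and the log2FC fell inside 1 without KO clone 1 or WT sample 2. By FDR alone Efna4 (−0.36, FDR = 0.0485) was lower and Plxna1 (0.41, FDR = 0.0331) higher, against 10.1% of all genes (4.29% lower and 5.82% higher). The WT samples come from 1 line and the KO samples from clones of it, so differences between clones and loss of Zfp266 cannot be told apart. No gene was called for a difference between the KO effects in iPSCs and ESCs by both thresholds, against 0.59% of all genes tested, with 2 at an unadjusted p below 0.05 in DESeq2 and 0 calls with edgeR. By FDR alone Efna5 passed, at 57.0, 57.7 and 55.7 in WT and 46.9, 49.5 and 52.5 in KO iPSCs.

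Sema6a was lower in KO by FDR at D7, in iPSCs and in ESCs, which are separate libraries. At D7 it had 397, 263 and 264 in WT and 209.9, 133 and 156 in KO, and in iPSCs 56.1, 157 and 72.4 in WT and 53.9, 53.0 and 50.5 in KO. In iPSCs the KO clones lay just below the lowest WT clone, and WT clone 2 stood far above all others. Plxnc1 was lower in KO at D7 and in iPSCs, and in ESCs it had 64.3, 47.6 and 87.7 in WT and 57.5, 44.8 and 39.5 in KO, which overlap.

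Beyond the 4 families, 67 other genes of guidance signalling were examined from a list of 68: neuropilins, effectors of plexins and Eph receptors, other semaphorin receptors, Slit and Robo, and the netrin system. None was a DEG in KO MEFs, at D3 or at D5, where 0.019%, 0.162% and 1.19% of all genes tested were called. For these genes the MEF result is not given without KO MEF replicate 3. At D7 10 were DEGs, 2 higher and 8 lower in KO, against 8.37% of all genes tested, and by FDR alone 29 passed, 4 higher and 25 lower, against 29.4%. The semaphorin effectors had 8 of 17 lower and none higher by FDR, where 16.1% of all genes tested were lower. Mical2, an actin-oxidising enzyme of the Mical family that acts downstream of plexins, went from 1971 ± 94.7 in WT to 858.6 ± 134 in KO (log2FC −1.20 ± 0.24, FDR = 6.73e-06), and Dpysl3, a collapsin response mediator, from 16550 ± 1282 to 8439 ± 706 (−0.97 ± 0.20, FDR = 1.24e-05). Robo2, a Slit receptor, fell from 2206 ± 141 to 785 ± 151 (−1.49 ± 0.14, FDR = 4.6e-25) and Rgma, a ligand of neogenin, from 1381 ± 174 to 649.6 ± 68.3 (−1.09 ± 0.16, FDR = 1.08e-09). Among the genes that rose was Robo4, a Robo receptor of endothelium (46.3 ± 24.0 to 264.7 ± 49.5, 2.51 ± 0.53, FDR = 2.85e-05). Nrp1 was lower by FDR alone (−0.69 ± 0.16, FDR = 1.83e-04). In iPSCs 3 of the 67 were DEGs, against 4.51% of all genes tested, and in ESCs 3, against 1.21%.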

How the data were processed

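RNA of 36 libraries was made into stranded poly(A) libraries. According to the sources, the authors trimmed reads with Cutadapt, mapped them to GRCm38.p6 with STAR and counted them per gene with Rsubread. The strand setting, the annotation release, the library preparation batches and the rule that left 21442 genes are not given in the sources used here. The deposited counts are raw reads per gene. The deposited normalised counts, a signal scale, are these counts divided by a DESeq2 size factor per library by the authors, and recomputing them gave a largest relative difference of 4.98e-15. The rlog values, which the authors corrected for batches, and the authors' fold changes and p-values were not used.

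DESeq2 1.42.0 in R 4.3.3 was fitted to the counts of all genes and all 36 libraries with 1 factor of 12 groups (Wald test, Benjamini-Hochberg FDR over all genes, default independent filtering). DEGs had FDR < 0.05 and a log2FC beyond 1. Differences between KO effects were contrasts of the same fit. Alternatives were edgeR 4.0.16 (quasi-likelihood, TMM), TMM size factors, a filter at a group mean of 10 normalised counts, a fit of the compared groups only, a replicate block, FDR alone and leaving out each library. The fits were tested on simulated counts. Exon lengths came from GENCODE M21, in which 21390 genes matched, and promoter sequences from RefSeq GRCm38.p6. Figures and tables were made with Python 3.11.15, pandas 2.3.3 and matplotlib 3.10.9.

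Genes named were KO DEGs, at most 15 per comparison, the 8 largest stage DEGs with a mean of at least 50 normalised counts in either group, genes whose KO effects differed between stages, and the highest gene per kb of a class. Others are named with their levels. The guidance genes, the other pathway genes and the marker lists were chosen with earlier results of these data known. The study calls the reprogramming samples independent, but the sources do not say whether they or the MEF samples were separate derivations, so p-values measure the spread between these samples, which may be technical. Replicate libraries differed by more than counting noise (chi-square per degree of freedom 3.04 to 96.0). A count of 0 allows up to 3 reads, 2.31 to 5.22 normalised counts by library.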

Additional observations from a re-analysis of the deposited data

Results flagged for a closer look

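For 13 results, the KO effect differed between stages by the interaction contrast of the DESeq2 fit at FDR < 0.05. The share of all genes by FDR alone is not given here, so this number is not read as a trait of the families. By both thresholds 8 of 48 genes were called between D7 and D3, against 4.12% of all genes tested. Between iPSCs and ESCs it was 0 of 46, against 0.59%. Between D7 and D3, the KO effect was higher at D7 for Epha4 by 1.84 ± 0.29 (log2FC ± SE, FDR = 4.8e-08), for Efnb3 by 1.47 ± 0.39 (FDR = 0.0033), for Ephb4 by 0.52 ± 0.17 (FDR = 0.0266) and for Sema6b by 2.36 ± 0.79 (FDR = 0.0269). It was lower at D7 for Sema3c with −1.22 ± 0.21 (FDR = 1.15e-06), Epha3 with −1.13 ± 0.28 (FDR = 0.00166), Ephb2 with −1.24 ± 0.32 (FDR = 0.00242), Plxna4 with −1.47 ± 0.42 (FDR = 0.00779), Plxna3 with −0.66 ± 0.19 (FDR = 0.0095), Sema3b with −1.05 ± 0.33 (FDR = 0.017), Plxna2 with −0.87 ± 0.28 (FDR = 0.0184) and Ephb6 with −0.69 ± 0.24 (FDR = 0.0334).

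The Sema6b difference was lost in 6 of 12 fits without a library, namely without D7 KO replicate 2, D3 KO replicate 1, 2 or 3 and D3 WT replicate 2 or 3, and the Sema3b difference in 3 of 12, without D7 KO, D3 KO or D3 WT replicate 2. The Epha3 difference fell inside 1 without D7 KO replicate 3. Between iPSCs and ESCs the KO effect of Efna5 was higher in iPSCs by 0.91 ± 0.25 (FDR = 0.0272), and with edgeR its FDR was 0.0603.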

How the results depend on the processing

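No result reversed its direction under any alternative run. By FDR alone the KO counts of guidance genes were 4 at D5, 27 at D7, 6 in iPSCs and 4 in ESCs. The shares of all genes tested were 7.15%, 29.4%, 16.3% and 10.1%. The WT counts were 18 from D3 to D5, 24 from D5 to D7 and 2 from iPS to ESC, and the count for the iPS and ESC KO effects was 1. For these the share of all genes by FDR alone is not given here, so the counts show only the effect of the threshold. Other pathway genes by FDR alone gave 2 at D5, 29 at D7, 14 in iPSCs and 10 in ESCs, beside the same shares of all genes for these KO comparisons. From WT iPS to WT ESC edgeR gave 0 and the replicate block 0. A fit of the iPS groups alone gave 1 other pathway gene. Without 1 library, guidance gene counts ranged from 1 to 2 at D5, 11 to 16 at D7, 0 to 3 in iPSCs, 1 to 3 in ESCs, 0 to 4 from WT iPS to WT ESC and 0 to 1 for the iPS and ESC KO effects, and other pathway genes from 0 to 7 in iPSCs and 1 to 4 in ESCs. The count was 2 at D5 without KO replicate 1 and 1 in ESCs without KO replicate 1 or WT replicate 2. In iPSCs the count was 0 without WT replicate 2 and 3 without KO replicate 2 or WT replicate 1. The KO effects at D7 and D3 differed for 7 genes with edgeR, 11 in a fit of those groups alone and 9 with the replicate block. Same-numbered libraries deviated together by r = 0.17, 0.05 and 0.16 at D7, and no comparison had every r above 0.1, so the block was not taken as a pairing; it gave 14 at D7. Of 54 results on named genes, 11 were no longer called with edgeR, 8 in the fit of the compared groups, 1 with TMM size factors, 1 with the block and 0 with the filter. Of 402 such results in fits without 1 library, 96 were no longer called. The causes were not tested. Genes of a few reads, such as Epha5 and Ephb1 in D7 KO, are limited by depth.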
